A study of Rattus norvegicus with 9 samples.

Results

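The genes described here license replication origins and take cells into S phase. They are the minichromosome maintenance genes Mcm2, Mcm3, Mcm4, Mcm5, Mcm6 and Mcm7, the licensing factor gene Cdt1, the cyclin E gene Ccne1 and the ribonucleotide reductase gene Rrm1. Members were taken by gene symbol, as every probe set whose single annotated symbol is one of these names, so no value entered the rule, although the list of names was drawn up with earlier results of these data known. Each of the 9 genes was measured by 1 probe set, so 9 of the 31042 probe sets tested, and 9 of the 14217 genes with a single symbol, are the subject.

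Tongue tissue of male Sprague Dawley rats was hybridised to 9 arrays, and the 3 groups had 3 arrays each. In the 4NQO+IL-1Ra group, rats received 4-nitroquinoline oxide (4NQO), a carcinogen that binds DNA bases and causes dysplastic and malignant lesions of the oral mucosa, and the receptor antagonist of interleukin-1 (IL-1Ra), a natural blocker that competes with the cytokine for its receptor. In the 4NQO group rats received the carcinogen at 0.002% in the drinking water, and in the normal group they drank distilled water. The labels give 22 weeks of 4NQO, with rats killed from week 14 to week 22 as lesions became visible. The methods of the study instead describe 4NQO up to week 14, then weekly injections under the tongue mucosa until week 22, of IL-1Ra in the 4NQO+IL-1Ra group and of saline in the 4NQO group. The stage of lesion in each tongue and the ages of the rats are not stated by the labels or the methods, which give no injection for the normal group. Array numbers only name the samples. The labels do not tie the samples to animals, while the study describes 9 randomly chosen rat tongue tissues, 3 in each group. The p-values measure the spread between these samples, of which a part may be technical.

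Before a chromosome can be copied, the origin recognition complex loads the MCM hexamer, which is built from the products of Mcm2 to Mcm7, onto DNA in G1 with the help of Cdc6 and Cdt1. Cyclin E with its kinase Cdk2 then helps to start S phase, when the loaded hexamers become the helicase of the replication fork and ribonucleotide reductase supplies deoxynucleotides. In stratified epithelium such as that of the tongue, dividing cells lie in the basal and lower layers, and MCM proteins are used in pathology as markers of cells that are able to divide. Transcription of many of these genes is driven by E2F factors, which the retinoblastoma protein restrains in resting cells.

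Because the members are textbook targets of E2F, their promoters were searched for 4 words of the E2F site, TTTCCCGC, TTTGGCGC, TTTCGCGC and TTTGCCGC, on both strands. RefSeq promoter windows (build GRCr8) ran from 250 bases before to 50 bases after the gene start and were at hand for 8 of the 9 members, all but Mcm4. Of these 8, 6 held at least 1 E2F word, and Mcm3, Mcm5, Mcm7 and Cdt1 held 2 that did not overlap. A word occurred in 2.14% of all 33469 promoter windows and in 3.64% of the 11734 windows of genes on the array. Around each match 60 bases are shown, or 30 where a match reached past the start, because these words are what most of the member promoters shared. Capitals mark the E2F words, the sequence runs 5′ to 3′ in the direction of the gene, and positions are counted from the start, with -1 the base before it.
Mcm2, chr4:122918095-122918154, minus strand: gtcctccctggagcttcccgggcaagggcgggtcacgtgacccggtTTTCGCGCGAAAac
Mcm3, chr9:30733725-30733754, minus strand: tgGCGGGAAAacttgggaagtTTTCGCGCc
Mcm5, distal, chr19:13488576-13488635, plus strand: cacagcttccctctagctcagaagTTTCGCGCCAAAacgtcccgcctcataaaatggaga
Mcm5, proximal, chr19:13488753-13488812, plus strand: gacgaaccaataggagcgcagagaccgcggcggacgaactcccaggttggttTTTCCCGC
Mcm6, chr13:42404456-42404515, minus strand: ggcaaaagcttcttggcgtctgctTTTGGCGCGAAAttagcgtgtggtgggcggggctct
Mcm7, distal, chr12:22163369-22163428, minus strand: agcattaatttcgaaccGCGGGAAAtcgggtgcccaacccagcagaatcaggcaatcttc
Mcm7, proximal, chr12:22163197-22163256, minus strand: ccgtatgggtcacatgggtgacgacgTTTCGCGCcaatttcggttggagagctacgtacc
Cdt1, first, chr19:67529245-67529274, plus strand: ccgcgaaaattGCGCGAAAtccgcgggaag
Cdt1, second, chr19:67529269-67529298, plus strand: gggaagtagcttTTTGGCGCcatggcgcag

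In Mcm2, Mcm6 and at the distal site of Mcm5, words on both strands overlapped to make 1 site of 12 bases. The site of Mcm2 lay at -14 to -3 and that of Mcm6 at -139 to -128. The proximal site of Mcm5 ended at the base before the start, and both sites of Cdt1 lay past it. CCAAT, the word bound by NF-Y, occurred on either strand in 5 of the 8 windows (Mcm3, Mcm5, Mcm6, Mcm7 and Rrm1), against 37.5% of all promoter windows, and in Mcm7 it overlapped the last base of the proximal E2F site. The windows of Ccne1 and Rrm1 held none of the 4 E2F words, which says only that these letters were not in these 300 bases. In the wider lists of replication and S phase genes, 22 of 54 windows (40.7%) held an E2F word, and among genes of mitosis 1 of 9 did (11.1%). A match is a string of letters and was not tested as a binding site.

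**Figure D1:**
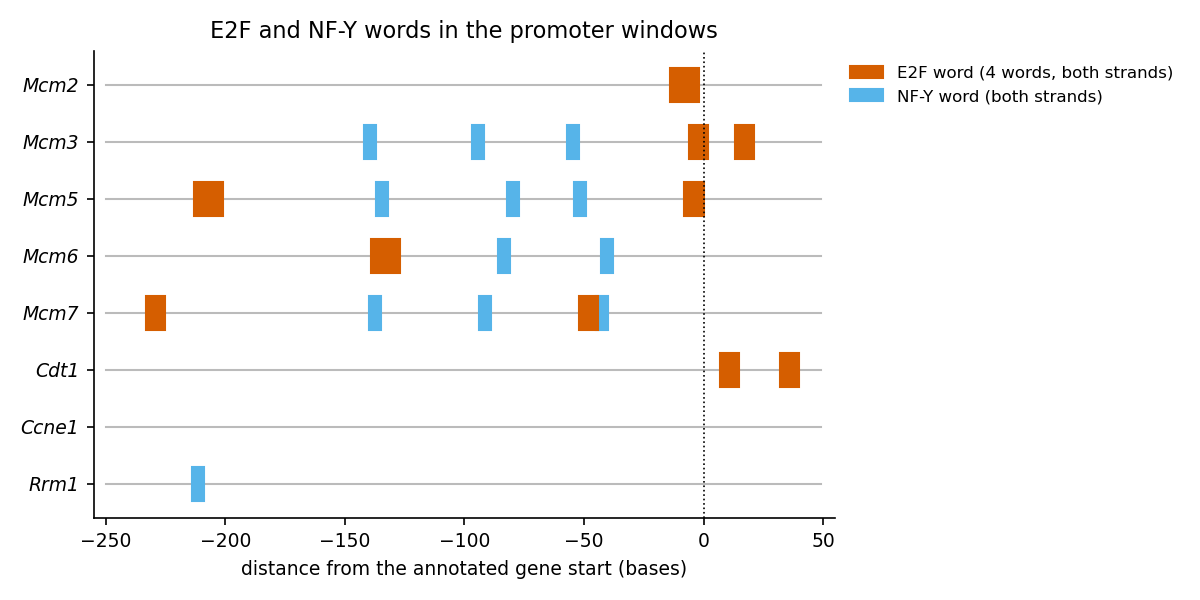
Positions of the 4 E2F words (orange) and of the NF-Y word (light blue) in the promoter windows of 8 members, 1 row a gene, with distance from the annotated gene start in bases on the horizontal axis. Mcm2, Mcm3, Mcm5, Mcm6, Mcm7 and Cdt1 hold 1 or 2 E2F sites, and the rows of Ccne1 and Rrm1 hold none.

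The values are log2 intensities, in which a difference of 1 is a 2-fold difference. Epithelium and muscle are the main tissues of the tongue. The epithelial keratin gene Krt13 ran from 12.96 to 13.64 log2 over the arrays and the muscle actin gene Acta1 from 13.36 to 13.64. Not all markers of these tissues were so high. Krt1 went down to 6.73 log2, Ivl ran from 3.48 to 6.98 and the muscle gene Actn3 from 5.73 to 10.30. The arrays were not alike in everything besides treatment. Medians of all probe sets ran from 5.23 to 5.27 log2, but the values were more spread in both 4NQO-exposed groups. Upper quartiles were 7.16 to 7.26 log2 in the 4NQO+IL-1Ra group, 7.21 to 7.28 in the 4NQO group and 7.04 to 7.08 in the normal group, and lower quartiles were 3.60 to 3.70 log2 in the 4NQO+IL-1Ra group, 3.61 to 3.66 in the 4NQO group and 3.73 to 3.78 in the normal group. The 3′ minus 5′ signal of beta-actin, a measure of RNA quality, was 0.98 to 1.27 log2 in the 4NQO+IL-1Ra group, 1.07 to 1.29 in the 4NQO group and 0.74 to 0.86 in the normal group. That of GAPDH was 0.26 to 0.28 log2 in the 4NQO+IL-1Ra group, 0.31 to 0.43 in the 4NQO group and 0.23 to 0.30 in the normal group, and that of hexokinase 1.80 to 2.20 log2 in the 4NQO+IL-1Ra group, 1.29 to 1.78 in the 4NQO group and 1.47 to 1.53 in the normal group. The 3 measures thus did not order the groups alike. For the members 4NQO array 3 stood apart, since it was the highest of its group in 9 of 9 of them. The same array had the highest 3′ minus 5′ signal of its group for beta-actin (1.29 log2), GAPDH (0.43 log2) and hexokinase (1.78 log2). Results are therefore also given without it.

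All 6 MCM subunit genes were higher on every 4NQO+IL-1Ra array and every 4NQO array than on any normal array. Mcm2 had 7.61, 7.79 and 7.58 log2 in the 4NQO+IL-1Ra group, 7.42, 7.50 and 8.03 in the 4NQO group, and 6.95, 6.77 and 6.47 in the normal group. Mcm3 had 6.71, 6.94 and 6.77 log2 in the 4NQO+IL-1Ra group, 6.35, 6.43 and 7.16 in the 4NQO group, and 5.76, 5.69 and 5.88 in the normal group. For both genes, 4NQO array 3 was the highest of all 9 arrays, and the other 2 arrays of the 4NQO group lay below every 4NQO+IL-1Ra array. Mcm4 had 7.28, 7.72 and 7.71 log2 in the 4NQO+IL-1Ra group, 7.45, 7.57 and 8.09 in the 4NQO group, and 6.86, 6.37 and 6.67 in the normal group. Mcm6 had 6.78, 7.20 and 6.78 log2 in the 4NQO+IL-1Ra group, 6.32, 6.44 and 7.59 in the 4NQO group, and 5.83, 5.42 and 5.63 in the normal group. Mcm4, Mcm6 and Mcm7 encode the catalytic core of the helicase, and of all members Mcm6 had the widest spread in the 4NQO group (SD 0.70 log2, n = 3). Mcm7 had 8.79, 8.91 and 8.60 log2 in the 4NQO+IL-1Ra group, 8.74, 8.76 and 9.28 in the 4NQO group, and 8.25, 7.94 and 8.21 in the normal group. Mcm5 had 7.11, 7.05 and 6.94 log2 in the 4NQO+IL-1Ra group, 6.74, 6.58 and 7.39 in the 4NQO group, and 6.34, 6.51 and 6.48 in the normal group. Mcm5, which with Mcm2 forms the gate through which the ring opens, thus came closest to an overlap, with 0.07 log2 between the lowest 4NQO array and the highest normal array.

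The remaining 3 members were also lowest on the normal arrays. Cdt1, the factor that brings the MCM ring to the origin, had 5.96, 5.93 and 5.70 log2 in the 4NQO+IL-1Ra group, 5.71, 6.23 and 6.73 in the 4NQO group, and 5.01, 5.09 and 5.17 in the normal group. Ccne1 had 5.64, 6.26 and 6.15 log2 in the 4NQO+IL-1Ra group, 5.88, 5.62 and 6.01 in the 4NQO group, and 5.26, 4.99 and 5.23 in the normal group. Rrm1, the large subunit of ribonucleotide reductase, had 7.83, 8.07 and 8.02 log2 in the 4NQO+IL-1Ra group, 7.91, 8.10 and 8.20 in the 4NQO group, and 7.36, 7.0 and 7.39 in the normal group. The spread within the 4NQO group was smaller for Rrm1 (SD 0.14 log2, n = 3) than for Cdt1 (SD 0.51 log2, n = 3). Ccne1 was the only member whose highest value was not on 4NQO array 3 but on 4NQO+IL-1Ra array 2.

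**Figure D2:**
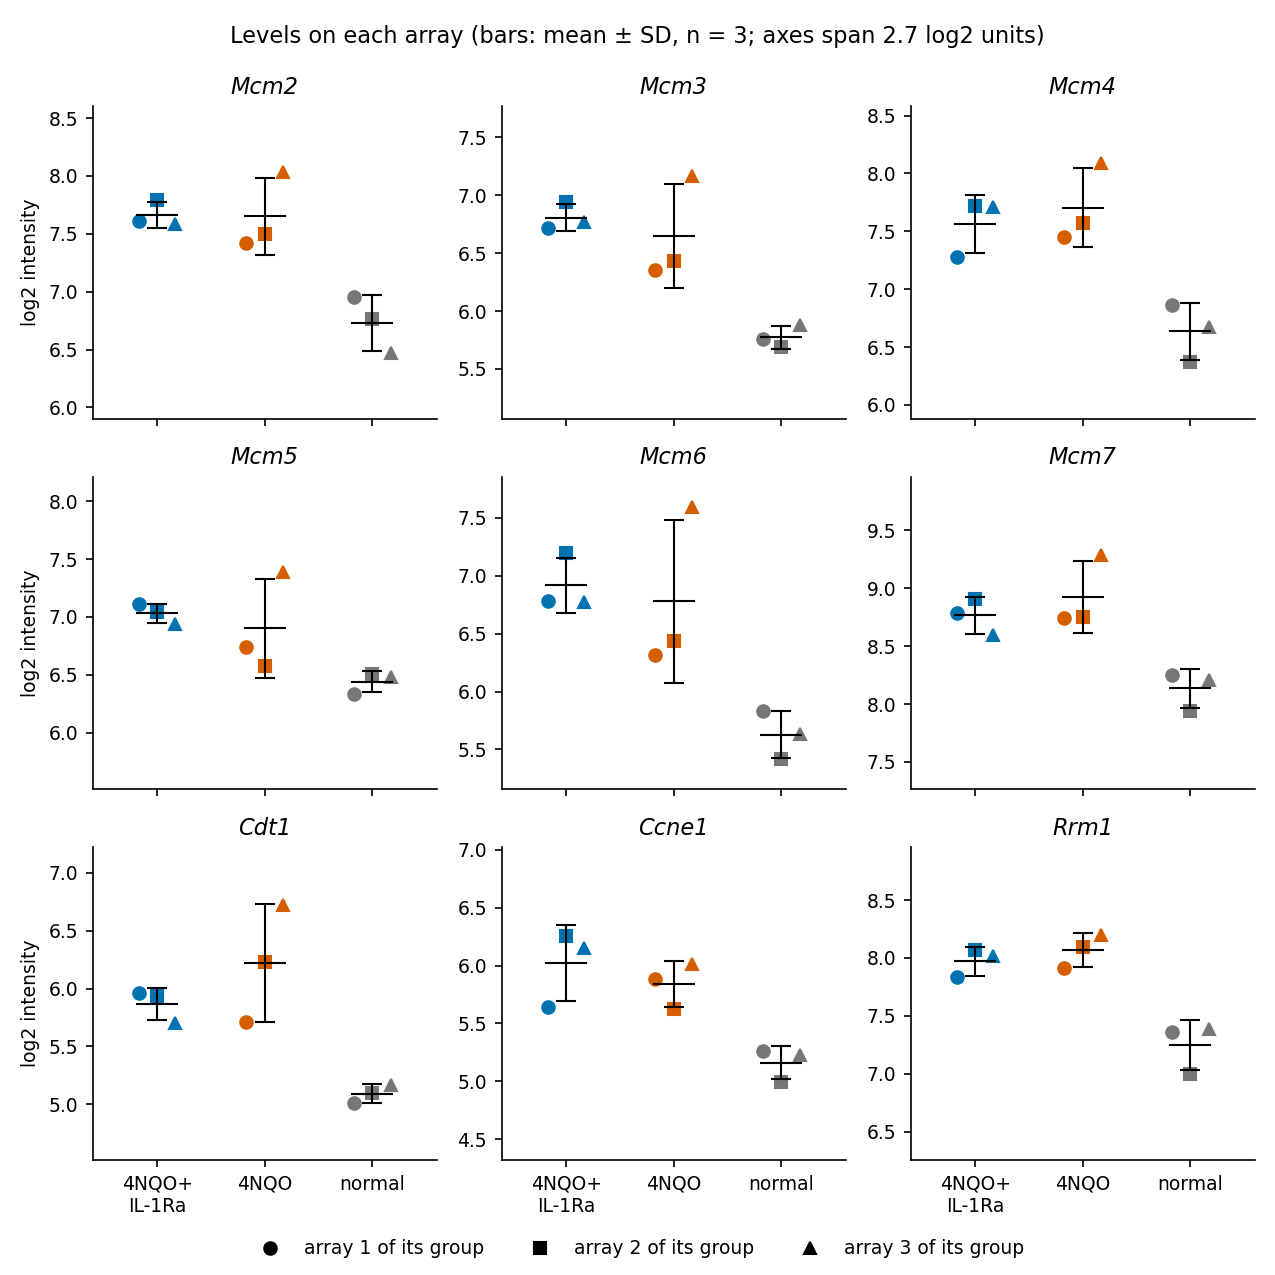
Log2 intensity of each member on each array, 1 panel a gene, with the 4NQO+IL-1Ra (blue), 4NQO (orange) and normal (grey) groups from left to right. Symbols mark the array within its group, black bars are the mean ± SD (n = 3), and every panel spans the same height. Every grey point lies below all blue and orange points, and the orange triangle, 4NQO array 3, is the highest of its group in each panel.

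The first comparison asks how the carcinogen-treated tongue differed from normal tongue. By limma, 8 of 9 members rose in the 4NQO group, and Mcm5 did not pass the test. Among all probe sets 9.41% rose. Every 4NQO array exceeded every normal array for 9 of 9 members, against 20.6% of all probe sets. The median difference of the members was 0.88 log2, and that of all probe sets 0.01. The upper quartiles also differed between the groups, and the median of the members was 0.73 log2 with quantile and 0.70 with cyclic loess scaling.

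Mcm6 had the largest difference, 2.23-fold (95% confidence interval 1.41 to 3.51, limma adjusted p = 0.0301), followed by Cdt1 at 2.19-fold (1.57 to 3.05, adjusted p = 0.0116) and Mcm4 at 2.10-fold (1.54 to 2.85, adjusted p = 0.0112). The intervals of these 3 genes overlap widely, so their order is not resolved. Mcm2 rose 1.89-fold (1.44 to 2.49, adjusted p = 0.0128) and Mcm3 1.83-fold (1.36 to 2.47, adjusted p = 0.0191). Rrm1 had the lowest adjusted p of the members, 0.00835, with 1.77-fold (1.43 to 2.18). Mcm7 rose 1.73-fold (1.34 to 2.24, adjusted p = 0.0164) and Ccne1 1.60-fold (1.23 to 2.09, adjusted p = 0.0300). Mcm5 was 1.38-fold higher in the 4NQO group (1.03 to 1.83, adjusted p = 0.116). Because the hexamer holds 1 copy of each subunit, the values of the 6 MCM genes are given side by side, but the difference between Mcm5 and the other subunits was not tested.

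Without 4NQO array 3, differences from normal ran from 0.22 log2 (Mcm5) to 0.88 log2 (Cdt1), with a median of 0.73, and 7 of 9 members passed by limma. Ccne1 was the one lost (0.59 log2, adjusted p = 0.0680). Leaving out a normal array cost more calls: 5 members passed without normal array 1, 4 without array 2 and 3 without array 3, while all differences stayed above 0. With cyclic loess scaling of the arrays 4 members passed. Calls over all 31042 probe sets, in either direction, fell as well. They went from 4610 to 851 without normal array 3 and to 2480 with cyclic loess scaling, and were at most 4417 without any single array.

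The second comparison asks whether IL-1Ra altered these genes in tongues exposed to 4NQO. By limma, 0 of 9 members differed between the 4NQO+IL-1Ra and 4NQO groups, where 2.33% of all probe sets differed in either direction. At an unadjusted p below 0.05 the count was also 0, by limma and by the methods' t-test. The arrays of the 2 groups overlapped for 9 of 9 members, against 79.4% of all probe sets. Differences ran from -0.36 log2 for Cdt1 to 0.18 log2 for Ccne1, with 5 of 9 above 0 and a median of 0.01, against -0.02 for all probe sets.

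Cdt1 had the lowest adjusted p here (limma adjusted p = 0.407), at 0.78-fold with an interval of 0.56 to 1.09. The interval for Mcm2 ran from 0.77 to 1.33-fold around 1.01, and that for Rrm1 from 0.76 to 1.16-fold around 0.94. For Mcm6 it was the widest, 0.70 to 1.73-fold around 1.10. Intervals of this width do not show that the levels of the groups were alike. Without 4NQO array 3 the differences ran from -0.10 to 0.54 log2, with a median of 0.20, and 0 of 9 passed. The lowest adjusted p was then that of Mcm3, at 0.42 log2 (adjusted p = 0.0630), and Mcm4 and Mcm7 changed sign, to 0.054 and 0.018 log2.

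The third comparison sets tongues given 4NQO and IL-1Ra against normal tongue. By limma, 5 of 9 members rose, where 1.33% of all probe sets did: Mcm3 2.05-fold (95% confidence interval 1.52 to 2.76, adjusted p = 0.0428), Mcm2 1.91-fold (1.45 to 2.51, adjusted p = 0.0440), Mcm4 1.91-fold (1.40 to 2.59, adjusted p = 0.0498), Ccne1 1.81-fold (1.39 to 2.37, adjusted p = 0.0449) and Rrm1 1.65-fold (1.34 to 2.04, adjusted p = 0.0440). The 4 others were 2.45-fold (Mcm6, adjusted p = 0.0573), 1.71-fold (Cdt1, adjusted p = 0.0807), 1.55-fold (Mcm7, adjusted p = 0.0735) and 1.51-fold (Mcm5, adjusted p = 0.105) higher in the 4NQO+IL-1Ra group. Every 4NQO+IL-1Ra array exceeded every normal array for 9 of 9 members, against 19.4% of all probe sets, and the median difference was 0.86 log2, against -0.01 for all probe sets. With quantile scaling the median of the members was 0.78 log2, and with cyclic loess scaling 0.79. This comparison and that of 4NQO with normal share the normal arrays, and each shares arrays with the second comparison, so the 3 sets of differences are not independent.

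All of these adjusted p-values lay close to the threshold, and the count of calls moved with the arrays in the fit. With only the 6 arrays of the 2 groups 9 of 9 members passed, as they did without 4NQO array 3. Without 4NQO array 1 the count was 2, and without any single 4NQO+IL-1Ra or normal array it was 0. It was also 0 with quantile or cyclic loess scaling and 3 with an intensity trend in the variance. Calls over all probe sets moved too. They were 581 in the main fit, 2084 without 4NQO array 3, 0 without normal array 1, 203 with quantile and 97 with cyclic loess scaling. At an unadjusted p below 0.05, 9 of 9 members passed by limma and by the methods' t-test. In 4NQO over normal tongue the counts at that level were 9 of 9 members by limma and 7 by the other test. No share of all probe sets is given at that level, so how unusual these counts are was not tested. Over 20 other settings all 180 differences of members from normal stayed above 0 in each of the 2 comparisons with normal.

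**Figure D3:**
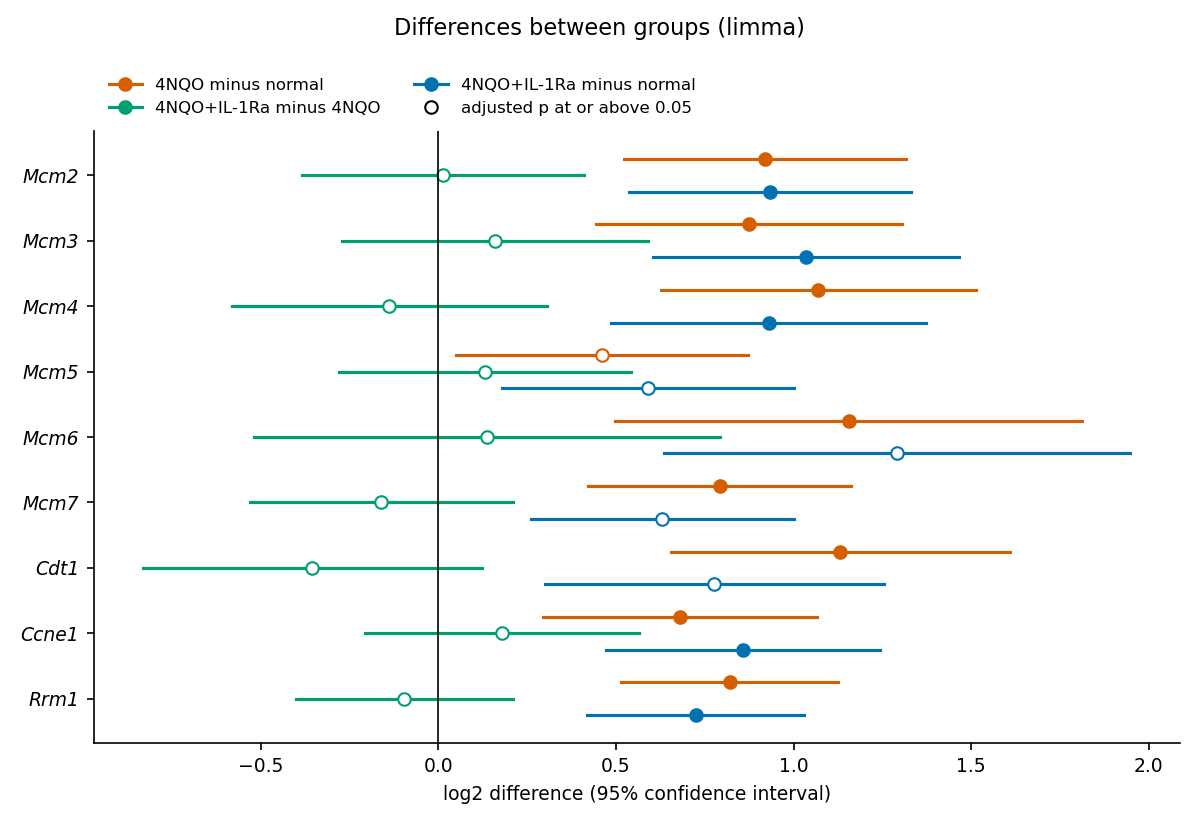
Log2 difference of each member with its 95% confidence interval from limma, for 4NQO minus normal (orange), 4NQO+IL-1Ra minus 4NQO (green) and 4NQO+IL-1Ra minus normal (blue). Filled points have an adjusted p under 0.05. Orange and blue points lie between 0.46 and 1.29, and every green interval spans 0.

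The members moved together from array to array. Over the 9 arrays the median Pearson r of the 36 pairs of members was 0.90 (range 0.69 to 0.98), a description in which all points share the same 9 RNA samples and the difference between groups. After the group means were taken out, the median r was 0.69 (range 0.03 to 0.96). Both values include 4NQO array 3, the highest of its group for 9 of 9 members, and r was not computed without it. The arrays of the 4NQO group were the most spread: the median SD of the members was 0.14 log2 in the 4NQO+IL-1Ra group, 0.34 in the 4NQO group and 0.17 in the normal group, against 0.15, 0.19 and 0.11 over all probe sets.

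The 5 genes outside the lists whose profile was most like the mean of the members, of 14095 compared, were Mrto4, Rpusd2, Epb41l4a, Macroh2a1 and Ppp1r10, each with a Pearson r of 0.99 over the 9 arrays. Mrto4 takes part in assembly of the large ribosomal subunit, Macroh2a1 encodes a variant histone, and Ppp1r10 a regulatory subunit of protein phosphatase 1. Mrto4, for instance, had 7.33, 7.47 and 7.40 log2 in the 4NQO+IL-1Ra group, 7.29, 7.18 and 7.75 in the 4NQO group, and 6.77, 6.46 and 6.70 in the normal group. Like most members it was highest on 4NQO array 3, which is no separate observation, since it was picked for its likeness to their profile.

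Among other genes of replication a part rose with the members. Of 60 measured genes in lists of origin recognition, origin firing, replication fork, nucleotide supply and G1 to S control, 16 rose in 4NQO over normal tongue by limma, 0 fell and 44 did not pass (0 fell also with the methods' t-test at a fold of 1.5 or 2). That is 26.7% higher, where 9.41% of all probe sets rose and 5.44% fell. The median difference was 0.35 log2. In 4NQO+IL-1Ra over 4NQO tongue 0 of the 60 differed by limma, 2 at an unadjusted p below 0.05 and 0 by the methods' t-test at that level. In 4NQO+IL-1Ra over normal tongue 6 rose (10.0%, against 1.33% of all probe sets) and 0 fell, with a median of 0.42 log2. The count of 16 was 7 with cyclic loess scaling, of which 6 rose and 1 fell, 9 with quantile scaling, and 8, 6 and 3 without normal arrays 1, 2 and 3. The count of 6 was 20 without 4NQO array 3, 11 without 4NQO array 2, 3 without 4NQO array 1, and 0 or 1 without any single 4NQO+IL-1Ra or normal array. Calls over all probe sets also moved in such fits. In 4NQO against normal they went from 4610 to 851 without normal array 3. In 4NQO+IL-1Ra against normal they went from 581 to 2084 without 4NQO array 3.

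Most of those that rose work at the fork, where 11 of 23 measured genes (47.8%) rose in 4NQO over normal tongue. Fen1, the nuclease that trims Okazaki fragments, had 6.54, 6.64 and 6.61 log2 on 4NQO arrays and 5.74, 5.52 and 5.59 on normal arrays, a 1.98-fold rise (limma adjusted p = 0.00379). In the 4NQO+IL-1Ra group it had 6.69, 6.46 and 6.76 log2, 2.03-fold over normal (adjusted p = 0.0196). Unlike the members, Fen1 was not highest of the 4NQO group on array 3. The clamp loader gene Rfc1 rose 1.64-fold in 4NQO over normal tongue (adjusted p = 0.00794), although 1 of its other probe sets had a difference of -0.42 log2 (adjusted p = 0.0533) and another one of 0.99 log2 (adjusted p = 0.00528). Pold2 and Pold1, subunits of DNA polymerase delta, rose 1.58-fold (adjusted p = 0.0106) and 1.86-fold (adjusted p = 0.0133). In 4NQO+IL-1Ra over normal tongue Fen1, Rfc3, Rfc4 and Pold3 were among the 5 that passed (another probe set of Pold3 did not, at 0.12 log2, adjusted p = 0.707), with Rfc3 at 1.72-fold (adjusted p = 0.0440) and Rfc4 at 1.62-fold (adjusted p = 0.0440). Pcna, the sliding clamp and a common marker of proliferation, had 9.75, 9.69 and 10.46 log2 on 4NQO arrays and 9.86, 9.64 and 9.68 on normal arrays. Its difference of 0.24 log2 did not pass (adjusted p = 0.470).

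Of 11 measured genes of origin recognition and MCM partners 1 rose in 4NQO over normal tongue (9.09%, near the 9.41% of all probe sets), and the median was 0.33 log2. The one was Orc6 at 1.60-fold (limma adjusted p = 0.0408), and its 2 other probe sets did not pass (0.098 log2, adjusted p = 0.555, and 0.34 log2, adjusted p = 0.131). Gmnn, which encodes geminin, the inhibitor of Cdt1, had 6.55, 7.05 and 6.87 log2 in the 4NQO+IL-1Ra group, 6.38, 5.97 and 7.57 in the 4NQO group, and 6.53, 6.11 and 6.54 in the normal group. Its groups overlapped, and its difference between 4NQO and normal was 0.25 log2 (95% confidence interval -0.52 to 1.01, adjusted p = 0.650). Another probe set of Gmnn had the opposite sign (-0.27 log2, adjusted p = 0.272). Mcm10, which binds the fork but is no part of the hexamer, had 4.81, 4.38 and 5.0 log2 on 4NQO arrays and 4.83, 4.97 and 5.13 on normal arrays (difference -0.25 log2, adjusted p = 0.30), and its other probe set a difference of 0.22 log2 (adjusted p = 0.636), so neither gene has a settled direction. Among 8 measured genes of origin firing 1 rose (12.5%, against 9.41% of all probe sets). It was Topbp1, at 1.59-fold (adjusted p = 0.0340), and its other probe set did not pass (0.31 log2, adjusted p = 0.138). Cdc6, which loads the ring with Cdt1, had no probe set with a single symbol.

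Of 5 measured genes of nucleotide supply 1 rose in 4NQO over normal tongue (20%, against 9.41% of all probe sets). It was the deaminase gene Dctd (1.66-fold, limma adjusted p = 0.0317). Rrm2, the small subunit that pairs with Rrm1, had no probe set with a single symbol. Of 13 measured genes of G1 to S control 2 rose (15.4%, against the same 9.41%). Ccnd1, the cyclin D1 gene, had 9.64, 9.60 and 10.44 log2 on 4NQO arrays and 8.67, 8.41 and 8.62 on normal arrays, a 2.51-fold rise (adjusted p = 0.00736), and its 2 other probe sets rose as well. E2f2 rose 1.88-fold (adjusted p = 0.0346). In 4NQO+IL-1Ra over normal tongue Ccnd1 was the one gene of this list to pass (2.02-fold, adjusted p = 0.0466). Neither Ccne2, the second cyclin E gene, nor Cdk2, the kinase partner of both cyclins, passed by limma in 4NQO minus normal. Ccne2 had a difference of 0.08 log2 (adjusted p = 0.695) and Cdk2 one of -0.20 log2 (adjusted p = 0.370). Other probe sets gave the opposite signs, -0.064 log2 for Ccne2 (adjusted p = 0.811) and 0.28 log2 for Cdk2 (adjusted p = 0.180).

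Of 7 measured CDK inhibitor genes 1 rose in 4NQO over normal tongue (14.3%, against 9.41% of all probe sets). This was Cdkn2a, which encodes p16, an inhibitor of the cyclin D kinases, and ARF. It had 7.61, 7.28 and 8.74 log2 in the 4NQO+IL-1Ra group, 7.85, 7.07 and 7.78 in the 4NQO group, and 4.64, 4.32 and 3.98 in the normal group. Its rise was 9.51-fold in 4NQO over normal tongue (limma adjusted p = 0.00330) and 11.8-fold in 4NQO+IL-1Ra over normal tongue (adjusted p = 0.0196). Cdkn1a, the gene of p21, had a difference of 0.33 log2 in 4NQO minus normal (adjusted p = 0.124), and its other probe set one of 0.081 log2 (adjusted p = 0.858). In 4NQO+IL-1Ra over 4NQO tongue 0 of the 7 inhibitor genes passed by limma. There the arrays overlapped for 3 of the 7, against 79.4% of all probe sets, and of the others 2 were higher and 2 lower.

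**Figure D4:**
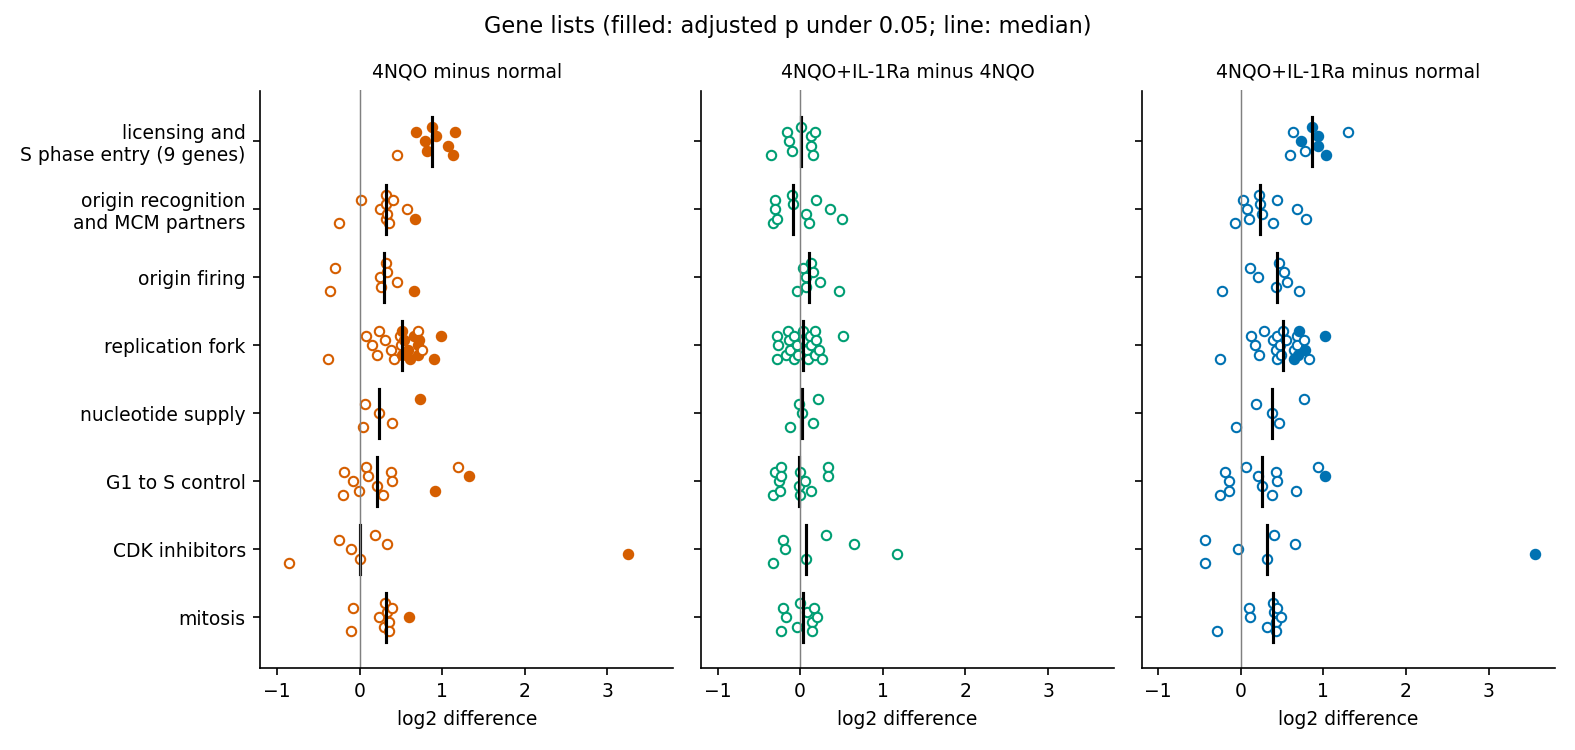
Log2 differences of single genes in the licensing and S phase entry genes and in 7 other lists, 1 panel a comparison, with a black line at the median of each list and filled points for an adjusted p under 0.05. In 4NQO minus normal the licensing and S phase entry genes have a median of 0.88, against 0.51 for replication fork genes and 0.32 for mitosis, and the far right point of CDK inhibitors is Cdkn2a.

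Genes of mitosis, which mark cells later in the cycle, mostly overlapped between the groups. Of 10 measured genes 1 rose in 4NQO over normal tongue (10.0%, near the 9.41% of all probe sets), Aurka at 1.51-fold (limma adjusted p = 0.0149), and the arrays of the groups overlapped for 9 of 10, against 61.8% of all probe sets. Mki67, the gene of the Ki-67 antigen, had 7.34, 7.92 and 7.30 log2 in the 4NQO+IL-1Ra group, 7.33, 6.78 and 8.21 in the 4NQO group, and 7.25, 6.64 and 7.37 in the normal group. Its difference between 4NQO and normal was 0.35 log2 (95% confidence interval -0.39 to 1.10, adjusted p = 0.492). Top2a differed by 0.24 log2 (-0.52 to 1.00, adjusted p = 0.658), and by 0.040 log2 on its other probe set. With 4NQO+IL-1Ra against 4NQO, and against normal, 0 of 10 passed by limma. At an unadjusted p below 0.05 the counts were 0 and 1, by limma and by the methods' t-test.

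Set against the mean of the normal arrays, the mean log2 level of the 10 mitotic genes was 0.13, 0.48 and 0.23 on 4NQO+IL-1Ra arrays, 0.21, -0.25 and 0.85 on 4NQO arrays, and 0.19, -0.33 and 0.15 on normal arrays. On the same scale the mean of the 9 members was 0.76, 1.00 and 0.82 on 4NQO+IL-1Ra arrays, 0.63, 0.71 and 1.29 on 4NQO arrays, and 0.09, -0.12 and 0.03 on normal arrays. On 4NQO array 2, the members lay 0.71 log2 above the normal mean and the mitotic genes 0.25 log2 below it. The mean of the members less that of the mitotic genes ran from 0.52 to 0.63 log2 on 4NQO+IL-1Ra arrays, 0.42 to 0.96 on 4NQO arrays and -0.11 to 0.21 on normal arrays. These are descriptions of the 9 arrays, with no test of one list against the other.

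Some markers of cell types also differed between the groups. In bulk tissue more cells of a type and more RNA per cell cannot be told apart. Among all probe sets 9.41% rose and 5.44% fell in 4NQO over normal tongue by limma. In 4NQO+IL-1Ra over 4NQO tongue 2.33% differed in either direction. No share of all probe sets is given for an unadjusted p. Of 6 measured markers of basal keratinocytes, the dividing layer of the epithelium, 3 rose in 4NQO over normal tongue by limma (Itga6 1.54-fold, Itgb4 2.38-fold and Col17a1 2.80-fold), and the median was 0.91 log2. For Itga6 the other 3 probe sets had differences of 1.44 (adjusted p = 0.00782), 0.21 (adjusted p = 0.415) and -0.32 log2 (adjusted p = 0.174), so its rise depended on the probe set. Their mean, set against the normal mean, ran from 0.63 to 0.77 log2 in the 4NQO+IL-1Ra group, 0.63 to 1.46 in the 4NQO group and -0.24 to 0.14 in the normal group, and was highest on 4NQO array 3, as for the members. Of 6 fibroblast markers 5 fell (median -1.29 log2), with list means of -0.62 to -0.22 log2 in the 4NQO+IL-1Ra group, -2.11 to -0.41 in the 4NQO group and -0.09 to 0.18 in the normal group. Of 5 endothelial markers 4 rose (median 0.81 log2), with list means of 0.15 to 0.43 log2 in the 4NQO+IL-1Ra group, 0.52 to 0.94 in the 4NQO group and -0.10 to 0.19 in the normal group. By limma 0 of 8 muscle and 0 of 6 leukocyte markers passed in 4NQO over normal tongue, with 1 and 2 at an unadjusted p below 0.05, and 0 of either list by the methods' t-test at that level. In 4NQO+IL-1Ra over 4NQO tongue, where no member differed by limma, all 6 leukocyte markers were above 0 (median 0.77 log2): 0 of 6 passed, 5 had an unadjusted p below 0.05 by limma and 1 by the methods' t-test. Leukocyte list means were 0.18 to 0.65 log2 in the 4NQO+IL-1Ra group, -0.90 to 0.02 in the 4NQO group and -0.16 to 0.22 in the normal group. Of 5 markers of differentiated keratinocytes 1 passed, involucrin (Ivl), which fell in 4NQO over normal tongue (-2.35 log2, limma adjusted p = 0.0105) and rose in 4NQO+IL-1Ra over 4NQO tongue (2.50 log2, adjusted p = 0.0182). The 4 others did not pass in either comparison, and in 4NQO minus normal they ran from -1.07 log2 (Krt10) to 1.86 log2 (Krt1). In 4NQO+IL-1Ra minus 4NQO all 5 were above 0 (median 1.00 log2). In that comparison all 6 fibroblast markers were also above 0 (median 0.74 log2) and all 5 endothelial markers below 0 (median -0.51 log2), with 0 of either list passing by limma. Of 6 basal keratinocyte markers 2 were above 0 (median -0.37 log2), and of 8 muscle markers 2 (median -0.10 log2), again with 0 passing. Every 4NQO+IL-1Ra array lay below every 4NQO array for 3 basal and 2 muscle markers, against 3619 of all 31042 probe sets. Muscle list means were -0.52 to -0.06 log2 in the 4NQO+IL-1Ra group, -0.23 to 0.44 in the 4NQO group and -0.19 to 0.15 in the normal group. None of the measured markers was listed at 0. The part of cell composition, and that of RNA quality, in the differences of the members was not tested.

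**Figure D5:**
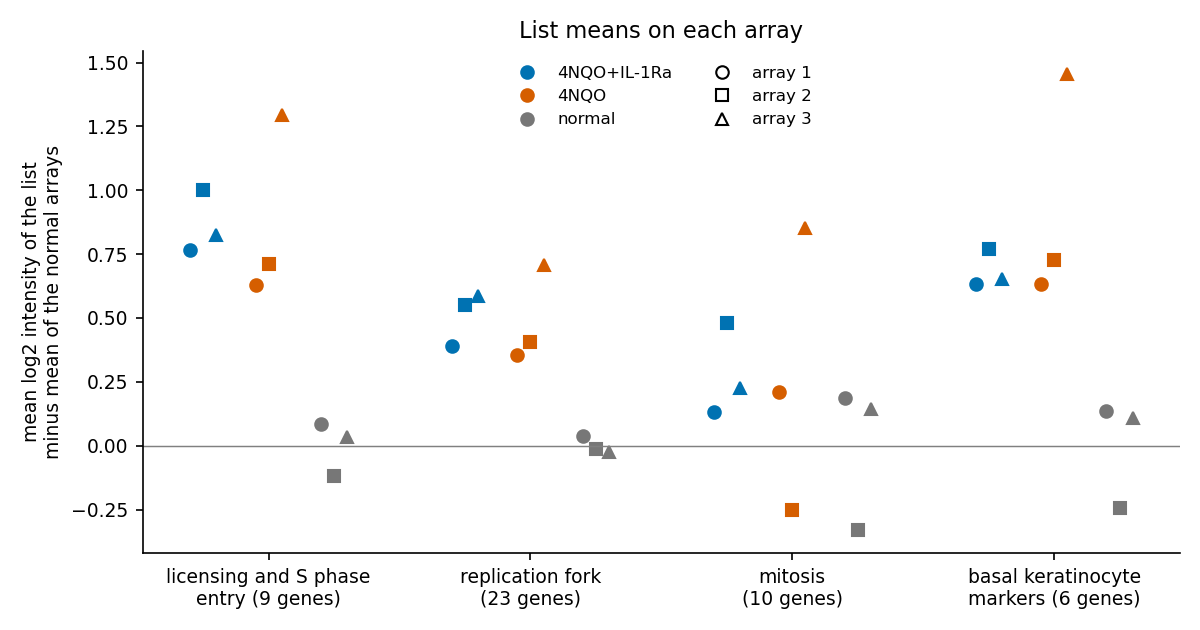
Mean log2 intensity of 4 gene lists on each array, less the mean of the normal arrays, for 4NQO+IL-1Ra (blue), 4NQO (orange) and normal (grey) arrays. The licensing and S phase entry genes, the replication fork genes and the basal keratinocyte markers separate normal arrays from the others. The mitotic genes overlap between all groups, and 4NQO array 3 (orange triangle) is the highest point in all 4 lists.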

How the data were processed

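Biotin-labelled RNA of rat tongue was read on Affymetrix rat expression arrays. Affymetrix Expression Console and RMA are named in the submitters' processing notes, with versions not given in the sources used here. On the linear scale the authors deposited an intensity for every probe set of every array, and each deposited value was turned into log2. RMA corrects background and scales the arrays to each other, so a shift shared by most genes may be hidden, but the deposited arrays still differed in their quartiles. After 57 control probe sets were left out, 31042 of 31099 were tested, with no filter on dim ones. The platform annotation gave 20826 of them a single symbol, 436 several and 9780 none, and genes were named from the first kind only.

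Groups follow the treatment label. The 3 group means were fitted to the 9 arrays (limma 3.58.1, R 4.3.3), and two-sided p-values were adjusted by Benjamini-Hochberg over all 31042 probe sets within each of 3 comparisons, at a threshold of 0.05. The fit was tested on simulated data. Where a gene had several probe sets, the brightest on average stood for it, while members have 1 each. All 9 members are named. Of each pathway list at most 4 called genes with the lowest adjusted p are named, with 11 proliferation genes whatever their values (Cdc6 and Rrm2 had no usable probe set) and the 5 genes most like the members. Members and lists were chosen with earlier results of these data known. Promoter windows are from RefSeq (GRCr8). Scalings, filters, variance models, the methods' t-test (Student's, which they name for the study's data in general; equal variance and the Benjamini-Hochberg step were choices made here, and a fold of 1.5 or 2 follows their array rule) and leaving out each array were tried as alternatives. The number of arrays limits the precision. Plots were made in Python 3.11.15 (matplotlib 3.10.9).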

Additional observations from a re-analysis of the deposited data

How the results depend on the processing

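For the members, all 180 differences from normal under 20 other settings stayed above 0, for 4NQO and for 4NQO+IL-1Ra, and 0 of 9 members passed in 4NQO+IL-1Ra against 4NQO under any setting. The counts of calls were less stable. In each sentence that follows, the counts are of all probe sets, of the 9 members and of the 60 genes of the replication and S phase lists, where they moved by over 1.5 times. In 4NQO against normal, limma called 4610, 8 and 16. Quantile scaling gave 2821 probe sets and 9 list genes, cyclic loess 2480, 4 and 7, and 1 probe set per gene 2648 genes. The methods' t-test gave 2249 probe sets at a fold of 1.5, 452, 2 and 1 at a fold of 2, and 1, 0 and 0 after Benjamini-Hochberg. Leaving out an array gave 851 to 4417, 3 to 8 and 3 to 17, the lowest without normal array 3. In 4NQO+IL-1Ra against 4NQO, limma called 722, 0 and 0. Fitting only the 6 compared arrays gave 195 probe sets, 1 probe set per gene 359 genes, the t-test 357 at a fold of 2 and 0 after Benjamini-Hochberg, and leaving out an array 184 to 2353 probe sets and 0 to 2 list genes. In 4NQO+IL-1Ra against normal, limma called 581, 5 and 6. Quantile scaling gave 203, 0 and 1, cyclic loess 97, 0 and 1, an intensity trend 3 members, array weights 3556, 9 and 23, the 6 compared arrays 2714, 9 and 21, and 1 probe set per gene 326 genes. The t-test gave 1391, 9 and 13 at a fold of 1.5, 195, 2 and 2 at a fold of 2, and 109, 0 and 2 after Benjamini-Hochberg. Leaving out an array gave 0 to 2084, 0 to 9 and 0 to 20. Fits with an array left out rest on fewer arrays, and their counts went up as well as down. The cause of the shifts was not tested.

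In 4NQO+IL-1Ra minus 4NQO, 5 members changed sign when 1 array was left out. Mcm2 ran from -0.10 to 0.20 log2, Mcm4 from -0.27 to 0.054, Mcm5 from -0.030 to 0.37, Mcm6 from -0.10 to 0.54 and Mcm7 from -0.25 to 0.018. The share of higher probe sets among those called in 4NQO against normal was 63.4%, against 51.9% with quantile and 47.7% with cyclic loess scaling, and in 4NQO+IL-1Ra against normal 71.1%, against 46.3% and 35.1%. Since members have 1 probe set each, no other probe set could be tried for them, and the mean over probe sets gave the same values. No paired analysis was possible because the labels give no replicate numbers shared between the groups.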
